A study of Arabidopsis thaliana with 6 samples.

Results

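The transcripts described here are the 160 probe sets that read at least 2 times higher in seedlings of one transgenic Arabidopsis line than in the control, while both arrays of another set stayed in the control range. They are 160 of 22746 probe sets on the ATH1 array. The series asks what CDPK6 does in development. CDPK6 is a calcium-dependent protein kinase, an enzyme in which a kinase domain is joined to calmodulin-like EF hands. All plants were Col-0 and were harvested as whole seedlings. They had grown at 22 °C under a 16 h photoperiod, and each array took a pool of about 40 plants. The control, aeq+, carries an Aequorin transgene and had 2 arrays. The cdpk6-yfp line numbered 4, called line 4 here, also had 2. The cdpk6-yfp line numbered 1, called line 1, had 1 array. The labels of 1 more array disagree, since its title and source name point to the control and its strain label to cdpk6-yfp-1. It was placed in no group and is called the conflicting array here. Each cdpk6-yfp line stands for itself alone in these data, and no source used here names the promoter that drives the transgene. The CDPK6 transcript was not analysed here.

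The values that chose the members came from all 6 arrays. Deposited intensities, on a linear scale, were raised to a floor of 10. A probe set entered where both line 4 arrays read at least 2 times the higher control and both the conflicting array and the line 1 array lay within 1.5 times of the controls. Of all probe sets 276 met the first condition, which is 1.21%, and 168 met both, which is 0.739%. The second condition alone was met by 18661 probe sets, or 82% of all. Of 12 genes left out by name, 8 were among the 168, which left 160 members. Since every array was used, the values of the members are a description, and no test of them is given. Of the members 70 had 1 gene name in the annotation used, 2 had several and 88 had none here.

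In plants, calcium entering the cytosol is read by sensors such as calmodulin-like proteins and by calcium-dependent protein kinases, which relay signals of wounding, cold and attack. Immune signalling starts at receptors on the cell surface and at intracellular receptors, many of them with a TIR domain, and leads through salicylate to the secretion of antimicrobial proteins. Small molecules of this response, such as salicylate and N-hydroxypipecolate, are kept in balance by enzymes that include hydroxylases and glycosyltransferases.

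Among the 70 named members, the widest separations after the floor were those of a lipid-transfer protein gene, a calmodulin-like gene, a TIR-domain gene and a pair of AAA-type ATPase genes. Each of these was near or below the floor on the control arrays and above 100 on both line 4 arrays. By the roles written for them after their values were seen, 17 members encode immune receptors, calcium sensors and other signalling proteins, 11 encode secreted, wall or antimicrobial proteins, and 16 encode enzymes of small molecules. A further 8 encode transporters, metal-binding proteins, ATPases and a chaperone, 9 have other annotations and 9 were given no role. A fold below is the ratio of the geometric means of line 4 and control after the floor, and it is a lower bound, written "at least", where both controls were at or below 10. With 2 arrays in each of these groups, both values are printed in place of a standard deviation. In whole seedlings, a change in the number of cells of a type and a change in RNA per cell cannot be told apart.

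**Figure D1:**
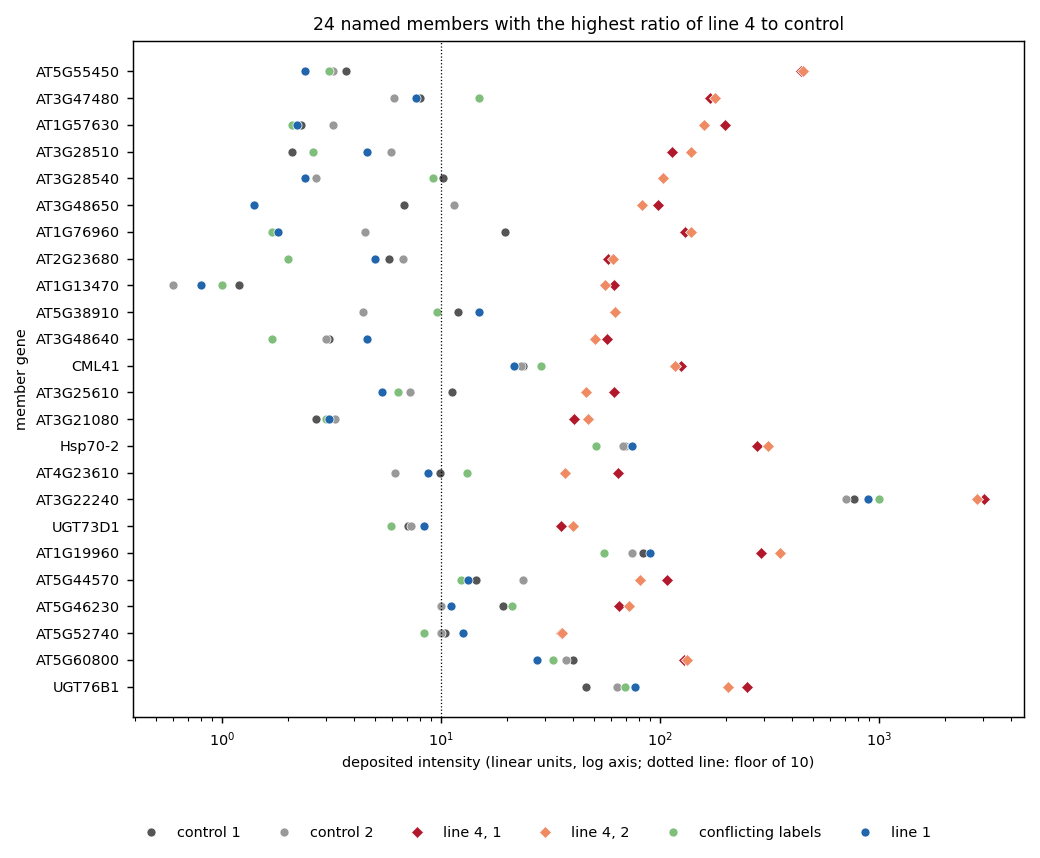
Deposited intensity (log axis) on each of the 6 arrays for the 24 named members with the highest ratio of the lower line 4 value to the higher control. Points stand for single arrays, diamonds for line 4, and the dotted line marks the floor of 10. For every gene drawn both diamonds lie to the right of the other 4 points, as the choice of members requires.

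The 17 receptor, calcium and signalling genes had a median fold of 2.78, with a range of 2.09 to 17.8. AT1G57630, which encodes a TIR-domain protein, read 2.3 and 3.2 in the control, 198.9 and 158.7 in line 4, 2.1 on the conflicting array and 2.2 in line 1. Its line 4 values were at least 17.8-fold above the floored control, and the other 4 arrays were all below the floor. AT3G47480, an EF-hand gene known as CML47, read 8.0 and 6.1 in the control, 169.2 and 178.9 in line 4, 14.9 on the conflicting array and 7.7 in line 1. This is at least 17.4-fold, and its conflicting array lies just inside the range that the rule allows. CML41 encodes a calmodulin-like protein of plasmodesmata that acts in immunity. It read 23.8 and 23.3 in the control, 125.5 and 117.6 in line 4, 28.6 on the conflicting array and 21.5 in line 1. The 5.16-fold separation of CML41 came with controls above the floor and nearly equal to each other. AT4G23610, of the LEA hydroxyproline-rich family that includes NDR1-like proteins, read 9.9 and 6.2 in the control, 64.2 and 36.8 in line 4, 13.2 on the conflicting array and 8.7 in line 1. Its replicates in line 4 differed most among all members, by 1.74 times.

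The remaining signalling members lay lower. GLR2.7, a glutamate receptor-like calcium channel, read 6.1 and 3.8 in the control, 34.1 and 32 in line 4, 9.8 on the conflicting array and 1.9 in line 1. AT5G48540, a secreted protein with cysteine-rich repeats, read 53.4 and 50.5 in the control, 180.7 and 167.5 in line 4, 79.5 on the conflicting array and 59.2 in line 1. AT3G04210, a TIR-NBS gene, read 44.0 and 52.7 in the control, 131.0 and 127.8 in line 4, 53.0 on the conflicting array and 69.9 in line 1. In AT3G04210 and AT5G48540 both of the latter arrays were above both controls, though far below line 4. A pair of receptor-like kinase genes belong here: AT4G18250, at 17.8 and 16.8 in the control and 51.4 and 44.1 in line 4, and AT5G39020, at 25.5 and 31.0 in the control and 62.0 and 64.5 in line 4. Their folds were 2.75 and 2.25. The VQ-motif gene AT1G78410 was 3.72-fold above the control, with control values of 16.4 and 8.3 and line 4 values of 44.4 and 51.2. It was at 0.5 on the conflicting array and 3.0 in line 1, below both controls as deposited. AT1G65690, an NDR1/HIN1-like gene, was 2.78-fold higher in line 4, and AT4G03450, an ankyrin repeat gene, 2.89-fold. The U-box gene AT5G67340, whose family attaches ubiquitin to proteins, was 2.45-fold higher. The folds of AT1G33950 (an AIG1-type GTPase), AT2G15042 (a leucine-rich repeat protein), AT1G67800 (a copine-type ubiquitin ligase) and AT5G24810 (an ABC1-type kinase family gene) were 2.25, 2.32, 2.09 and 2.09.

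Secreted, wall and antimicrobial proteins made up 11 members, with a median fold of 3.20 and a range of 2.28 to 44.8. AT5G55450, a lipid-transfer protein gene, read 3.7 and 3.2 in the control, 442.1 and 453.2 in line 4, 3.1 on the conflicting array and 2.4 in line 1. At no less than 44.8-fold it had the highest fold after the floor among named members. At the other end of the intensity scale, AT3G22240, a small cysteine-rich protein gene, read 768.7 and 709.6 in the control, 3020.8 and 2812.1 in line 4, 1004.7 on the conflicting array and 894.1 in line 1. Its line 4 signal was the highest of all 160 members at a 3.95-fold separation, and the conflicting and line 1 arrays were both above both controls. AT5G38910, a germin-like gene, read 12.0 and 4.4 in the control, 62.5 and 62.6 in line 4, 9.6 on the conflicting array and 14.9 in line 1.

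All 3 chitinase-family members were in this group, and these enzymes cleave the chitin of fungal walls. AT3G47540 read 58.3 and 37.2 in the control, 182.8 and 163.6 in line 4, 39.1 on the conflicting array and 34.6 in line 1. AT2G43620 read 24.5 and 25.5 in the control, 64.3 and 60.8 in line 4, 30.5 on the conflicting array and 23.1 in line 1. AT4G01700 read 35.1 and 28.5 in the control, 86.2 and 79.4 in line 4, 43.0 on the conflicting array and 27.3 in line 1. Their folds were 3.71, 2.50 and 2.62, and in each the line 4 replicates lay close together. The lectin gene AT3G16530 read 264.0 and 317.1 in the control, 1001.1 and 857.0 in line 4, 399.7 on the conflicting array and 355.7 in line 1. SBT3.3, a subtilisin-type protease linked to immune priming, read 3.4 and 5.5 in the control, 34.3 and 26.9 in line 4, 4.1 on the conflicting array and 3.9 in line 1. That is at least 3.04-fold, with every array outside line 4 below the floor. AT1G31550, a GDSL lipase gene, was 3.39-fold higher and AT1G13750, a purple acid phosphatase gene, 2.49-fold. The aspartyl protease gene AT5G19110 was at least 2.28-fold higher, with line 4 values of 20.8 and 25.1.

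The 16 enzymes of small molecules had folds of 2.20 to 4.17 after the floor, with a median of 2.77. In 3 of them both controls were at or below the floor. UGT76B1 glucosylates N-hydroxypipecolate, isoleucic acid and salicylate. It read 45.9 and 64.0 in the control, 249.5 and 205.2 in line 4, 69.6 on the conflicting array and 77.2 in line 1. Line 4 was 4.17-fold above the control, and both of the last arrays were above both controls. UGT73D1, another glycosyltransferase, read 7.1 and 7.3 in the control, 35.3 and 40.1 in line 4, 5.9 on the conflicting array and 8.4 in line 1. The glycosyltransferases UGT87A2 and AT2G36970 were 2.35-fold and 2.46-fold higher in line 4. CYP71B23, a cytochrome P450, read 30.8 and 35.6 in the control, 105.4 and 100.1 in line 4, 27.0 on the conflicting array and 24.7 in line 1. AT1G26380, the berberine-bridge-type oxidase FOX1, read 5.4 and 13.3 in the control, 38.1 and 33.3 in line 4, 4.7 on the conflicting array and 0.6 in line 1. CYP71B23 and AT1G26380 were both below both controls as deposited on the conflicting and line 1 arrays.

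AT3G13610 encodes F6'H1, which makes the precursor of the coumarin scopoletin. It read 159.3 and 171.3 in the control, 357.7 and 369.3 in line 4, 201.8 on the conflicting array and 132.1 in line 1. Here the last pair of arrays lay on opposite sides of the controls. MSRB9, a methionine sulfoxide reductase that repairs oxidised proteins, read 230.9 and 232.0 in the control, 499.1 and 523.3 in line 4, 193.5 on the conflicting array and 181.2 in line 1. AT3G60450, a phosphoglycerate mutase family gene, read 188.1 and 191.9 in the control, 392.9 and 445.5 in line 4, 228.1 on the conflicting array and 217.8 in line 1. These 3 genes had the brightest controls of the group and folds close to the threshold, at 2.20, 2.21 and 2.20. NDB4, an external NAD(P)H dehydrogenase of mitochondria, was at least 3.04-fold higher, with 24.0 and 38.5 in line 4. Of less certain role, the methyltransferase genes AT2G32160 and AT4G22530 and the acyltransferase gene AT5G42830, had folds of 4.00, 2.25 and 2.98. The kinase gene AT5G43910 was at 2.71-fold, the aldo-keto reductase gene AT1G60730 at 2.83-fold and the sugar transferase gene AT5G44820 at 2.24-fold or more.

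Transporters, metal-binding proteins, ATPases and a chaperone numbered 8, with a median fold of 4.33 and a range of 2.9 to 12.5. AT3G28510, an AAA-type ATPase gene, read 2.1 and 5.9 in the control, 113.1 and 139.1 in line 4, 2.6 on the conflicting array and 4.6 in line 1. AT3G28540, a second AAA-type ATPase gene 3 places away in the gene order, read 10.2 and 2.7 in the control, 103.5 and 103.9 in line 4, 9.2 on the conflicting array and 2.4 in line 1. The first was at least 12.5-fold and the other 10.3-fold above the control. AT3G25610, the phospholipid-moving P4 ATPase ALA10, read 11.2 and 7.2 in the control, 61.8 and 45.9 in line 4, 6.4 on the conflicting array and 5.4 in line 1. AT3G21080, an ABC transporter-like gene, read 2.7 and 3.3 in the control, 40.4 and 47.1 in line 4, 3.0 on the conflicting array and 3.1 in line 1. Hsp70-2, a chaperone that helps proteins fold, was well above the floor on all arrays. It read 69.7 and 67.8 in the control, 279.0 and 313.2 in line 4, 51.1 on the conflicting array and 74.3 in line 1, a 4.30-fold separation.

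A heavy-metal-associated domain marks 3 members of the same group. AT5G52740 read 10.4 and 10.0 in the control, 35.2 and 35.8 in line 4, 8.4 on the conflicting array and 12.6 in line 1. AT5G60800 read 40.0 and 37.4 in the control, 129.5 and 132.7 in line 4, 32.6 on the conflicting array and 27.4 in line 1. Line 4 was 3.48-fold and 3.39-fold above the control in AT5G52740 and AT5G60800, with replicates nearly equal. The third, AT3G07600, read 4.7 and 13.9 in the control, 30.4 and 38.4 in line 4, and 2.3 on both other arrays.

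**Figure D2:**
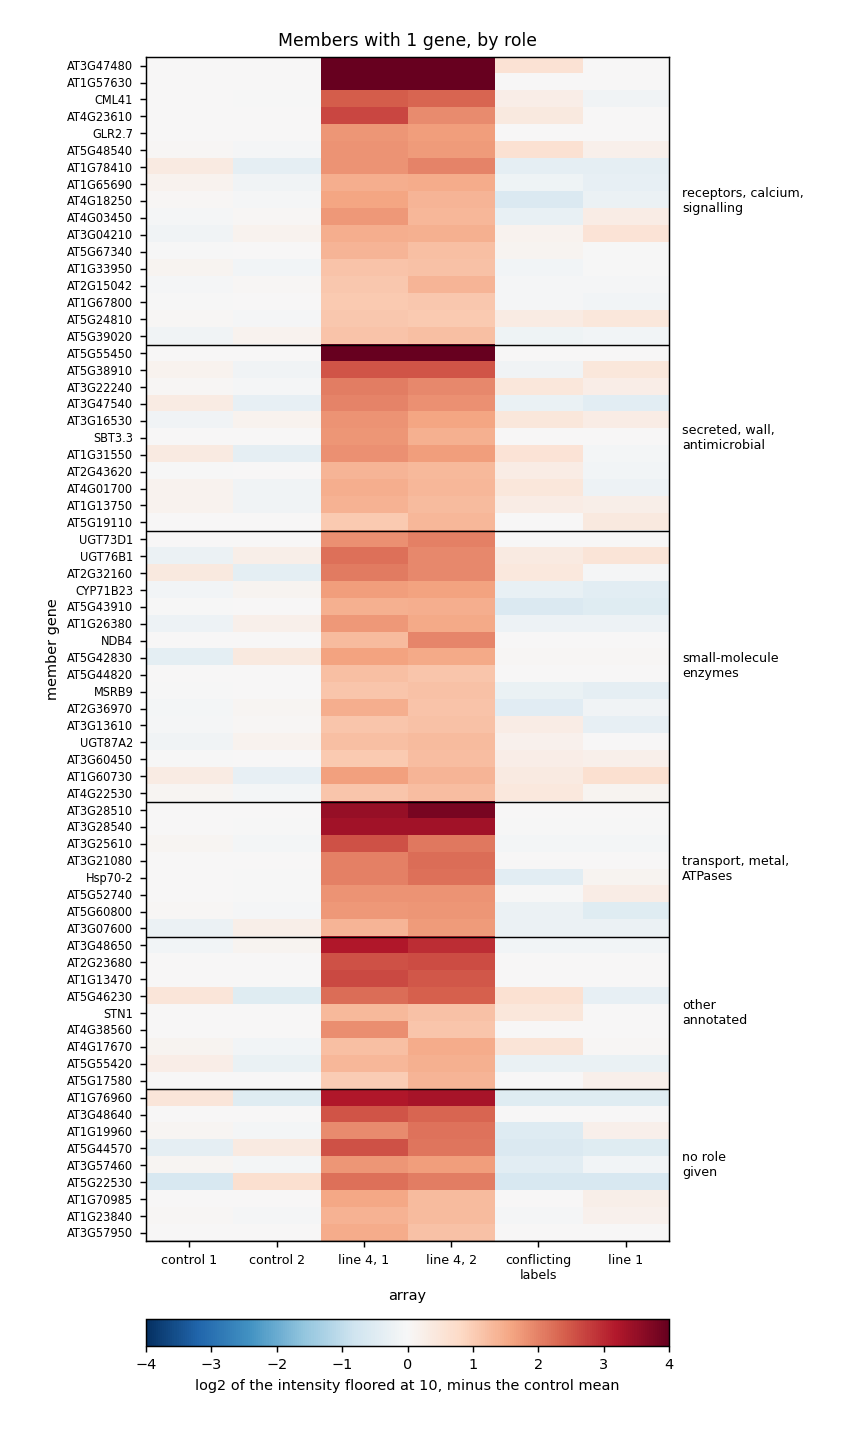
Differences from the control mean, as log2 of the intensity floored at 10, for the 70 members with 1 gene on each array, grouped by role, with colours capped at 4. The 2 line 4 columns are red throughout, as the choice of members requires, and the conflicting and line 1 columns hold pale shades of both colours.

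The other annotated members and those with no role given held several strong separations. AT3G48650 is a transcribed pseudogene in the gene table used, and it read 6.8 and 11.5 in the control, 97.9 and 82.6 in line 4, and 1.4 on both other arrays. AT3G48640, the gene beside it, has no role given here and read 3.1 and 3.0 in the control, 57.4 and 50.5 in line 4, 1.7 on the conflicting array and 4.6 in line 1. AT1G76960, of no given role, read 19.7 and 4.5 in the control, 130.1 and 138.8 in line 4, 1.7 on the conflicting array and 1.8 in line 1. The folds of these 3 were 8.39, at least 5.38, and 9.57, and the controls of AT1G76960 lay furthest apart among them. AT2G23680, of the WCOR413 cold acclimation family, read 5.8 and 6.7 in the control, 58.1 and 61.3 in line 4, 2.0 on the conflicting array and 5.0 in line 1. AT1G13470, of a family of unknown function, read 1.2 and 0.6 in the control, 61.7 and 56.2 in line 4, 1.0 on the conflicting array and 0.8 in line 1. Both were below the floor everywhere outside line 4. AT1G19960 read 83.4 and 74.5 in the control, 290.4 and 352.5 in line 4, 55.6 on the conflicting array and 90.1 in line 1. AT5G44570 read 14.4 and 23.7 in the control, 107.7 and 81.4 in line 4, 12.3 on the conflicting array and 13.3 in line 1. AT5G46230, of a family of unknown function, read 19.2 and 10.0 in the control, 65.1 and 72.1 in line 4, 21.1 on the conflicting array and 11.1 in line 1. Line 4 was 4.06-fold, 5.07-fold and 4.94-fold above the control in these. No other array overlapped line 4, as the choice of members requires.

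Among the rest of these 18 genes, AT5G22530 was 4.36-fold and AT3G57460 was 3.32-fold above the control, neither with a role given. AT4G38560, of a phospholipase-like family, was at least 2.82-fold higher, and the zinc finger gene AT4G17670 was 2.55-fold higher. STN1, part of the complex that caps telomeres, read 7.5 and 2.3 in the control, 24.4 and 22.7 in line 4, 13.8 on the conflicting array and 4.4 in line 1. The other members here were AT5G17580 of the NPH3 family, the transcribed pseudogene AT5G55420, and AT1G70985, AT1G23840 and AT3G57950. They had folds of at least 2.27 for AT5G17580, 2.59 for AT5G55420, at least 2.66 for AT1G70985, 2.53 for AT1G23840 and at least 2.50 for AT3G57950.

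The 88 members with no gene name here had a median fold of 4.08 and reached 48.1-fold. The highest was probe set 250445_at, at 6.4 and 6.1 in the control, 512.4 and 450.7 in line 4, 6.7 on the conflicting array and 14.9 in line 1. Probe set 260116_at read 0.9 and 4.3 in the control, 459.4 and 400.0 in line 4, 7.0 on the conflicting array and 2.6 in line 1. Probe set 266070_at read 1.5 and 4.1 in the control, 372.9 and 327.1 in line 4, 2.1 on the conflicting array and 1.2 in line 1. All 3 were below the floor in the control, so their folds of 48.1, 42.9 and 34.9 are lower bounds. The 2 members assigned to several genes had folds of 2.55 and 7.61.

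Most members started from a low signal. The median of their control means was 16.7, against 45.2 for all probe sets, and the median of their line 4 means was 92.6. Both controls were at or below the floor in 47 of 160, and in 35 the conflicting and line 1 arrays were too. Both controls were above 100 in 11, and a line 4 value was above 1000 in 6. In 39 members both line 4 values were below 50. The lower line 4 value was at least 3 times the higher control in 80 members, at least 5 times in 42, at least 10 times in 20 and at least 32 times in 6.

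Just inside the 2-fold limit were AT5G39020, probe set 260601_at and probe set 245173_at, with ratios of the lower line 4 value to the higher control of 2.00, 2.01 and 2.01. Just outside were probe sets 247604_at and 266761_at and a probe set of AT5G44820, at 1.98, 1.97 and 1.97. At the upper edge of the control range, the higher of the conflicting and line 1 values was 1.49 times the higher control for 250445_at, AT3G47480 and 263231_at. It was 1.5 times for 259937_s_at, 1.51 times for AT4G27300 and 1.52 times for AT3G55470, which were therefore left out. At the lower edge, 254869_at, AT5G43910 and AT4G18250 were inside, with a lower control 1.48, 1.47 and 1.44 times the lower of these arrays, while 261934_at, 245329_at and 249890_at were outside at 1.51, 1.55 and 1.55.

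Within the group, line 4 replicates were within 1.2 times of each other in 123 of 160 members. The rule asks both line 4 arrays to pass, which favours replicates that are close. Replicate 1 was above replicate 2 in 104 members, or 65%, against 50.5% of the 15123 probe sets with both line 4 values at 20 or more. The median ratio of replicate 1 to replicate 2 was 1.06 in members and 1.00 in those probe sets. The floored controls were within 1.2 times of each other in 107 members, and differed by at most 2.8 times. The 107 include the 47 members with both controls at or below 10, which the floor makes equal. No share over all probe sets is given beside the 123 or the 107, so neither is read as close replication.

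The members split about evenly on the arrays that the rule held in range. After the floor, the conflicting array was below both controls in 42 members, above both in 42, and equal to or between them in 76. For line 1 these numbers were 37, 41 and 82. The 76 and the 82 include the 35 members at or below 10 on the controls and on both of these arrays, which the floor makes equal. No such counts over all probe sets are given here, so nothing is read from the split. Both arrays were below both controls in 26 members and above both in 17. The median difference from the control over all members was 0 on the log2 scale on each of these arrays, and 1.86 in line 4. The floor and the rule hold the former near 0 and keep the latter high. Over the 13648 probe sets tested, the medians were 0.05 for the conflicting array, 0.03 for line 1 and -0.03 for line 4.

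**Figure D3:**
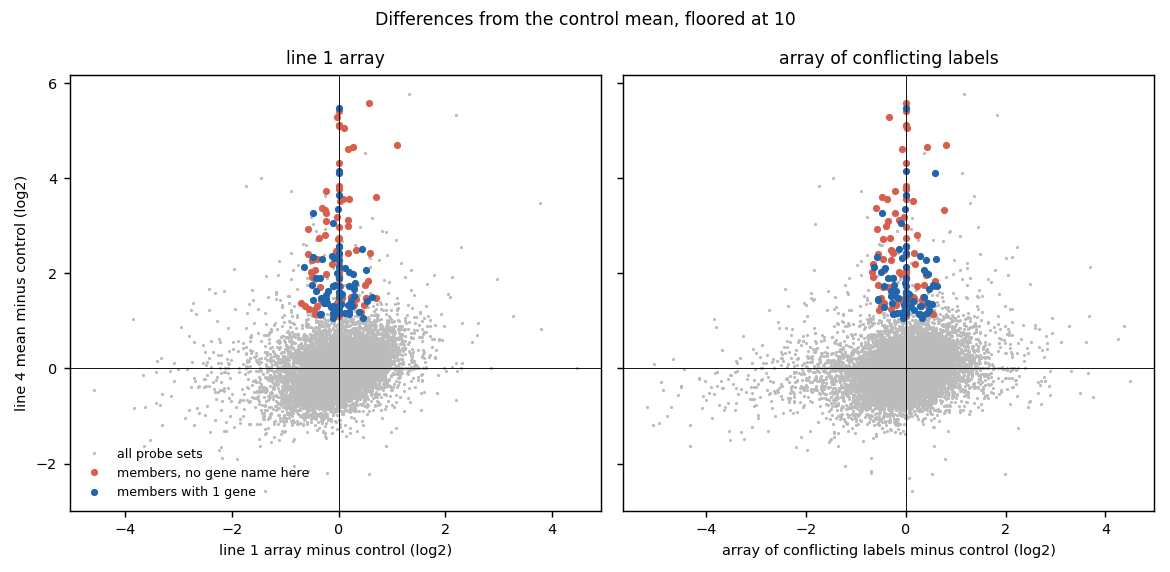
Difference of the line 4 mean from the control mean (vertical axis, log2 after the floor of 10) against that of the line 1 array (left) and of the conflicting array (right), for all 22746 probe sets and for members with 1 gene (blue) and with no gene name here (red). Members form a column above 1 and close to 0 sideways, as the rule sets, with other probe sets at the same height on both sides.

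Of the 276 probe sets raised in line 4, 108 were not in the control range on the other 2 arrays. In 65 of these at least one of the 2 arrays was above the range and neither below it, in 42 at least one was below and neither above, and in 1 there was one of each. The range was broken by the conflicting array alone in 40 and by the line 1 array alone in 26. With the conflicting array left out of the rule, 199 probe sets would be members, all 160 among them, as a looser rule must give. In the other direction, 56 probe sets, or 0.246%, had both line 4 arrays at no more than 0.5 times the lower control, and 12 of these were in range on the other 2 arrays.

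In a limma fit of the 5 grouped arrays, 90 of 160 members passed the filter on dim probe sets, 36 of them among the 70 with 1 gene. All 90 were called higher in line 4 at an adjusted p of 0.05, against 8.22% of all probe sets tested. The rule used the same contrast, so nothing is read from this count. Of all probe sets tested, members included, 7.39% were called lower. The same fit was used for genes that are not members, among them genes left out by name. The fit called 1122 probe sets higher, against 115 with the conflicting array as a further control, and 457 or 488 without line 4 replicate 1 or 2.

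One gene had a second probe set. AT5G44820 is a member through a probe set that read 2.3 and 5.0 in the control, 23.2 and 21.6 in line 4, 1.4 on the conflicting array and 3.8 in line 1. Its second probe set read 19.5 and 21.4 in the control, 42.2 and 42.1 in line 4, 18.9 on the conflicting array and 24.6 in line 1. That probe set had line 4 above all other arrays as well, at a log2 difference of 1.04, and narrowly missed the rule.

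Some members lay near each other in the genome. Within 3 genes along the gene order of the TAIR10.1 table there were 3 pairs of members, AT3G28510 with AT3G28540, AT3G48640 with AT3G48650, and AT5G55420 with AT5G55450. The search for neighbours was chosen after values had been seen. Of the non-member genes within that distance of a named member, 179 named probe sets were on the array and 102 were tested. In limma 13 were called higher in line 4 and 1 lower, which is 12.7% and 0.980%, beside 8.22% and 7.39% of all probe sets tested. The median log2 difference of these neighbours was 0.07.

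Of the neighbours called, 6 had a log2 difference of 1 or more, all higher in line 4. AT3G60420, of the same family as the member AT3G60450, read 40.7 and 27.6 in the control, 522.8 and 437.4 in line 4, 4.1 on the conflicting array and 2.2 in line 1. Line 4 was higher by 3.83 ± 0.19 on the log2 scale (SE, limma, adjusted p = 2.43e-06), but its second probe set read 2.6 and 3.3 in the control and 2.4 and 2.7 in line 4. The 2 probe sets of AT3G60420 therefore disagreed. AT5G52750, a neighbour of AT5G52740, read 107.7 and 109.0 in the control, 302.9 and 310.0 in line 4, 40.5 on the conflicting array and 43.4 in line 1. It rose by 1.5 ± 0.09 in line 4 (SE, limma, adjusted p = 1.03e-05). A second neighbour of that member, AT5G52760, was among the 12 genes left out by name and is not in these counts. AT4G21870, beside MSRB9, rose by 1.52 ± 0.10 (SE, limma, adjusted p = 1.23e-05), but read 291.9 on the conflicting array, as high as in line 4 at 278.7 and 300.5. AT3G28480 rose by 1.1 ± 0.12 (SE, limma, adjusted p = 0.000501), and ECS1, a wall protein gene, by 1.08 ± 0.10 (SE, limma, adjusted p = 0.000167). SUFE2 acts in the making of iron-sulfur clusters and rose by 1.15 ± 0.22 (SE, limma, adjusted p = 0.00805). Without line 4 replicate 1 its adjusted p was 0.0988.

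Neighbours of the same family did not all behave like the member. SBT3.5, next to SBT3.3, read 12.3 and 3.7 in the control, 61.8 and 54.8 in line 4, 11.4 on the conflicting array and 20.8 in line 1. It had line 4 above all other arrays but was too dim to be tested. CYP71B24, next to CYP71B23, read 8.3 and 13.9 in the control, 58.6 and 42.2 in line 4, 24.9 on the conflicting array and 11.7 in line 1. CYP71B22 read 16.9 and 29.6 in the control, 33.2 and 32.1 in line 4, 42.2 on the conflicting array and 18.2 in line 1, so that its highest value was not in line 4. AT1G26390, beside AT1G26380, read 4.4 and 10.3 in the control, 34.4 and 27.3 in line 4, 19.6 on the conflicting array and 7.3 in line 1. GLR2.8, beside GLR2.7, read 17.3 and 24.0 in the control, 25 and 24.2 in line 4, 12.3 on the conflicting array and 23.4 in line 1, and GLR2.9 was below 3 on all arrays. GLR2.7 was thus separated in line 4 while line 4 and line 1 were at like values in GLR2.8. The chitinase-family gene AT2G43610, beside AT2G43620, read 115.2 and 90.6 in the control, 119.2 and 152.5 in line 4, 297.2 on the conflicting array and 99.2 in line 1. It did not pass the test in line 4, at 0.40 ± 0.15 on the log2 scale (SE, limma, adjusted p = 0.110). AT2G43590 of that cluster rose by 0.39 ± 0.09 (SE, limma, adjusted p = 0.0221), and was highest on the conflicting array at 357.0. Near-identical copies can share hybridisation on this array, and how far that reaches these families was not tested.

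**Figure D4:**
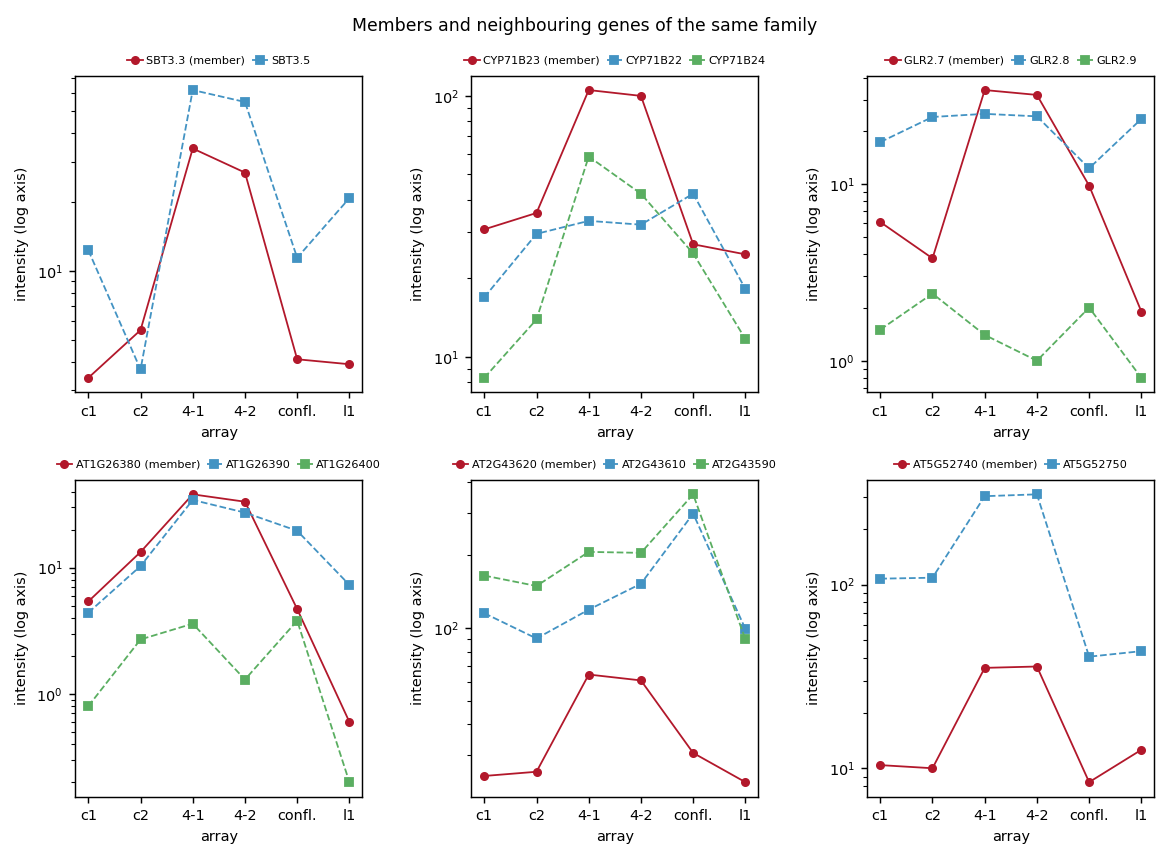
Deposited intensity (log axis, a different range in each panel) across the arrays for 6 members (red) and neighbouring genes of their families (blue, green), drawn after values had been seen. Arrays are control 1 and 2 (c1, c2), line 4 replicates 1 and 2 (4-1, 4-2), the conflicting array (confl.) and line 1 (l1). SBT3.5, CYP71B24, AT1G26390 and AT5G52750 peak in line 4 like the member beside them, while GLR2.8 does not stand out there and AT2G43610 and AT2G43590 peak on the conflicting array.

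Lists of defence genes covered 185 loci in 13 lists, of which 21 probe sets were named here and 16 were tested. Members among them were UGT76B1, CML41 and AT3G47480. Of the 13 others tested, 8 were called higher and 1 lower in limma, beside 8.22% and 7.39% of all probe sets tested. Of the 8 higher, 3 (AT5G52810, SAG101 and CHI) are among the genes left out by name. AT5G52810 and CHI meet the values of the rule, so their rise was set by it. The lists were chosen with earlier results of these data known, so nothing is read from this count. None of the list genes was named here for cysteine-rich receptor kinases, wall-associated kinases, camalexin and indole metabolism, senescence or jasmonate. Among calcium sensors, AT5G39670, an EF-hand gene known as CML46, read 123.4 and 137.6 in the control, 402.0 and 383.1 in line 4, 34.6 on the conflicting array and 26.1 in line 1. It rose by 1.59 ± 0.10 on the log2 scale (SE, limma, adjusted p = 1.03e-05). Its pattern differs from that of the member AT3G47480 in that both arrays outside control and line 4 were below the control. CML37 and CML43, at 0.58 ± 0.17 and 0.42 ± 0.19, did not pass in limma (adjusted p = 0.0513 and 0.184).

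Of genes for protein folding in the endoplasmic reticulum, the co-chaperone gene ATERDJ3B rose by 0.94 ± 0.08 on the log2 scale (SE, limma, adjusted p = 9.57e-05), with 186.4 and 173.8 in the control and 352.3 and 339.7 in line 4. The calreticulin gene CRT1b rose by 0.30 ± 0.08 (SE, limma, adjusted p = 0.0266). GSTU25, a glutathione transferase gene, rose by 1.16 ± 0.12 (SE, limma, adjusted p = 0.000305). BIK1, a kinase that acts below immune receptors, rose by 0.43 ± 0.12 (SE, limma, adjusted p = 0.0402), while SD1-29, a lectin receptor kinase gene, did not pass at 0.33 ± 0.18 (SE, limma, adjusted p = 0.261). The transcription factor gene WRKY22 fell by 0.44 ± 0.10 (SE, limma, adjusted p = 0.0178) and WRKY53 did not pass, at 0.42 ± 0.13 (SE, limma, adjusted p = 0.0577). Leaving out 1 array ended the calls of SAG101 (adjusted p = 0.12 and 0.069 without line 4 replicates 1 and 2) and BIK1 (adjusted p = 0.114 without control replicate 1, 0.0791 without control replicate 2 and 0.286 without line 4 replicate 1). It also ended those of WRKY22 (0.0594 without control replicate 2, 0.0539 and 0.153 without line 4 replicates 1 and 2) and of CRT1b (0.0677, 0.158 and 0.17 in the same order). PDF1.2b, a defensin gene too dim to be tested, read 6.7 and 11.2 in the control, 85.8 and 80.6 in line 4, 28.7 on the conflicting array and 13.9 in line 1. PDF1.2 read 3.1 and 4.6 in the control, 15.6 and 14.3 in line 4, 7.0 on the conflicting array and 5.4 in line 1. THI2.1 read lower in line 4, at 12.0 and 16.8, than in the control at 20.3 and 28.3, and EFR and PDF1.4 were also too dim to be tested. Any similarity of PDF1.2 and PDF1.2b in sequence can make their probe sets share signal.

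Families searched by name numbered 19, of which 12 had a non-member tested, and 3 in which the search by symbol found members are described gene by gene. Other members have a family in their role but not in their symbol. Of the tested non-members of their families, as found by name, 2 of 28 for RING and U-box proteins rose and 1 fell. For lipases and hydrolases 3 of 15 rose and 3 fell. A search by name can take in genes of other families. The genes that rose include RING1 and XTH19, 1 in each family, which are among the 12 genes left out by name. RING1 and XTH19 meet the values of the rule, so their rise was set by it. Of 4 lectin genes 1 fell, and the 1 ankyrin repeat gene was not called. Of 7 genes found by name as transporters 2 fell and none rose. Of 18 glycosyltransferase non-members, 3 rose and 3 fell, where 8.22% and 7.39% of all probe sets tested did so. UGT85A2 rose by 0.67 ± 0.10 on the log2 scale (SE, limma, adjusted p = 0.00270) and UGT74B1, a gene of glucosinolate synthesis, by 0.45 ± 0.08 (SE, limma, adjusted p = 0.00699). UGT73B1 fell by 0.80 ± 0.14 (SE, limma, adjusted p = 0.00514) and UGT76E11 fell by 0.78 ± 0.17 (SE, limma, adjusted p = 0.0164). Without line 4 replicate 1 or 2 the adjusted p was 0.0667 and 0.0597 for UGT74B1, and 0.126 and 0.120 for UGT76E11, which was at 0.0505 without control replicate 2. Among 6 EF-hand genes CML42 rose by 0.53 ± 0.10 (SE, limma, adjusted p = 0.00659) and CML23 fell by 1.24 ± 0.15 (SE, limma, adjusted p = 0.000705). The call of CML42 ended without line 4 replicate 1 or 2, at 0.0666 and 0.0721. Of 4 cytochrome P450 genes none was called in limma, and 1 had an unadjusted p below 0.05. CYP71B26 was at 0.34 ± 0.11 (SE, limma, adjusted p = 0.0599), and CYP71B28, CYP71B29 and CYP71B34 were at 0.02, 0.15 and 0.01.

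With the conflicting array as a further control, 18 of 21 called non-members lost their call in limma (AT2G43590 was not refitted). AT3G60420 was among those that kept it, at 4.42 on the log2 scale (adjusted p = 0.0408). Some lost the call at a larger difference, with 2.23 for AT5G39670 (adjusted p = 0.231), 1.97 for AT5G52750 (adjusted p = 0.176) and 1.31 for GSTU25 (adjusted p = 0.0631). Others lost it at a smaller one, with 0.83 for ATERDJ3B (adjusted p = 0.103) and -0.21 for CML23 (adjusted p = 0.946). With the conflicting array as a second line 1 array 13 of the 21 lost their call. Without the filter on dim probe sets 20 did, and AT5G52750 kept it (adjusted p = 0.0312).

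The arrays had median intensities of 44.2 to 46.4 and a common trimmed mean of 100.01. Control replicates correlated at r = 0.983 and line 4 replicates at r = 0.990 over 13648 probe sets, where points share array design and scaling. The conflicting array correlated with line 1 at 0.935, with the controls at 0.903 and 0.895, and with line 4 at 0.875 and 0.878. Line 1 correlated with the controls at 0.944 and 0.938, above its value with the conflicting array, so these values do not settle which label is right. Scanner background was 142.62 on control replicate 2 and 89.78 to 95.64 on the others. The 3'/5' ratio of actin was 4.27 and 4.30 in the control, 3.19 and 3.48 in line 4, 4.67 on the conflicting array and 4.17 in line 1, so it moved with line 4, and its part in the members was not tested. A 25S rRNA probe set read 275.4 to 282.1 on both controls and line 4 replicate 1, and 915.9 to 2189.3 on the other 3 arrays. Without control replicate 2 the rule would choose 171 probe sets, with 136 of the 160 among them. Marker lists of green tissue, root, guard cells, seed, flower and pollen, and senescent leaf covered 27 loci, of which 6 probe sets were named, and none was called in limma, with 1 at an unadjusted p below 0.05. The photosystem genes PSAN and LHCB4.2 read 2048.2 to 2849.0 and 2400.5 to 3102.2, and the root genes AT4G26010, EXPA7 and EXPA18 and the guard cell gene FMA read 23.7 to 67.5. No marker of seed, flower or pollen, or senescent leaf was named here.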

How the data were processed

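Biotin-labelled RNA of pooled seedlings was hybridised to ATH1 arrays, 1 per sample, per the labels' protocols. The deposited intensity of each probe set is linear and was scaled by the authors to a common trimmed mean of 100.01, as the values show. The probe summary method is not given in the sources used. No detection calls were used. Control probe sets, 64 of 22810, were dropped. Names came from the platform annotation, updated through the TAIR10.1 gene table. Of 22746, 13513 had 1 gene, 503 several and 8730 none here.

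Values were floored at 10 and taken to log2, and the dimmest 40% by mean over the 5 grouped arrays were dropped, leaving 13648. The fit (limma 3.58.1 with lmFit and eBayes with a variance trend, R 4.3.3) had 3 groups, 5 arrays and 2 residual degrees of freedom, with Benjamini-Hochberg adjustment over all probe sets tested and a threshold of 0.05. It was tested on simulated data. The single line 1 array is taken to vary as the replicated groups do. Nothing says that the pools were grown apart, so p-values measure only the spread between these pools, and the number of arrays limits precision. The array of conflicting labels entered fits among the alternatives only.

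Members and lists were chosen with earlier results of these data known. Roles, the search among neighbours and the families described were chosen after values had been seen. Values on all arrays are given for the 24 named and 3 unnamed members with the highest ratio of the lower line 4 value to the higher control, for members of the lists, and for others picked after seeing their values. Non-members named are those of the lists, up to 4 of each of the families described by the smallest p, and neighbours called with a log2 difference of at least 1, beside neighbours of a member's own family. Alternatives changed the floor, the limits of the rule, the filter, the variance trend, the scaling, the place of the conflicting array and the replicates. No gene or promoter sequence was used here.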

Additional observations from a re-analysis of the deposited data

Results flagged for a closer look

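A test of line 4 against line 1 in the limma fit was run for 26 non-members named above, with the single line 1 array taken to vary as the replicated groups do, so the p-values hold no spread of line 1 itself. At an adjusted p below 0.05, 16 differed between the 2 cdpk6-yfp lines, all higher in line 4, and 18.7% of all probe sets tested differed in either direction. Many of the 26 were named for their line 4 values, so nothing is read from this count or its direction. The differences on the log2 scale were 3.91 for AT5G39670, 2.96 for CML37, 0.81 for CML43, 0.47 for CML42 and 0.71 for CML23 among EF-hand genes. They were 5.58 for AT3G60420, 2.82 for AT5G52750, 1.5 for ECS1, 1.19 for AT4G21870, 1.18 for SUFE2 and 0.80 for AT3G28480 among neighbours of members. The others were 2.39 for WRKY53, 1.28 for CYP71B26, 1.16 for GSTU25, 0.62 for UGT74B1 and 0.57 for ATERDJ3B. In CML37, line 1 read 0.9 and the conflicting array 0.5, against 50.4 and 54.2 in the control. In WRKY53, line 1 read 21.6 and the conflicting array 24.2, against 86.9 and 83.2 in the control. CML37, WRKY53, AT5G39670, AT5G52750, AT3G60420, CYP71B26, CML23 and UGT74B1 had both of these arrays below both controls, and the other 8 did not.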

How the results depend on the processing

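The 160 members became 329 with a limit of 1.5 times the higher control and 80 with 3 times. Under the other planned settings of the rule the number lay between 113 (the narrower range) and 204 (the wider range). Leaving out 1 replicate gave 147 to 194. Without control replicate 1 or 2, 129 and 136 of the 160 were still chosen. Leaving out a line 4 replicate kept all 160, which was fixed in advance, since it only loosens the rule. Floors of 5 and 20 kept 141 and 123 of the 160, and quantile normalization kept 152. The conflicting array as a further control kept 146, and the wider range kept all 160, as a looser limit must. For probe sets called higher and lower (1122 and 1008), the counts were 103 and 27 without the dim filter, where 2979 probe sets at the floor on all 5 grouped arrays enter the variance estimate. They were 670 and 490 with no variance trend, 115 and 10 with the conflicting array as a further control, and 186 and 42 with it as a second line 1 array. Leaving out 1 replicate gave 457 to 1082 and 290 to 1035. List genes called (9) were 1 with no filter, 2 and 5 with the conflicting array as control and as line 1, and 5 to 8 without 1 replicate. The cause of these changes was not tested beyond the fewer arrays of the latter. Replicate numbers pair arrays only by number, and same-numbered deviations correlated at r = -0.0759. A replicate block gave 1332, 1299 and 10 calls, and added the call of CML37. CML37 also passed in limma with no variance trend (adjusted p = 0.0396), quantile normalization (0.0472) or control and line 4 arrays only (0.0252). A pseudocount of 10 in place of the floor added CML37 (0.0460) and WRKY53 (0.04995). WRKY53 also passed with control and line 4 arrays only (0.0333). CYP71B34 was at -0.0011 with the conflicting array as control, -0.029 without control replicate 1 and -0.065 to 0.094 without a line 4 replicate. CYP71B28 was at -0.049 without control replicate 2 and -0.12 to 0.15 without a line 4 replicate. With zeros raised to the smallest positive value and no other floor, 26 of 70 member differences moved, and 2 of 70 with quantile normalization. None changed sign, but the rule chose members by that sign, so nothing is read from this. Signal near background limits the 47 members whose controls lie at or below the floor.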
